A study of Mus musculus with 6 samples.

Results

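The genes described here encode the machinery that moves newly made proteins into the endoplasmic reticulum (ER), folds them there and carries them to the Golgi. They were taken by gene symbol from the platform annotation: Sec genes with a number, Ssr1 to Ssr4, Spcs1 to Spcs3, numbered Srp genes, Pdia3 to Pdia6, the Cop coat genes, numbered Tmed genes, Kdelr1 to Kdelr3, Lman1 and Lman2, and Mia2 and Mia3, with symbols that begin with these names. The rule gave 70 genes with 142 probe sets, out of 18193 genes that had a probe set of their own. It used no measured value. Of the 70 genes, 62 passed the filter on low values, which asked that 3 or more of the 6 arrays exceed a log2 intensity of 4. All 6 arrays lay above that level for 60 of these 62. The symbol pattern also took Sec1 and 4 Sec14-like genes, which encode a fucosyltransferase-related protein and lipid-binding proteins and are not known as export machinery.

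The study compared PICs, interstitial cells defined in the field by the protein PW1, with satellite cells, the resident stem cells of skeletal muscle. The hindlimb muscles of C57 black 6 mice, which were 7 to 9 days old, were digested and both populations were sorted by flow cytometry on staining for CD34 and Sca1; neither group carried a treatment or an engineered allele in the labels. Each population had 3 arrays, which the labels call biological replicates without saying whether each came from its own animals. If they did not, the p-values here measure only the spread between these arrays. From 200 ng of total RNA per sample, biotinylated cRNA was hybridised to 1-colour Affymetrix arrays, and the number of arrays limits the precision.

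Proteins bound for the cell surface or the extracellular space are recognised by the signal recognition particle while they are still being made and are threaded through the Sec61 channel into the ER. Disulfide isomerases and chaperones fold them, and vesicles with a COPII coat then take them from ER exit sites towards the Golgi. Vesicles with a COPI coat, guided in part by the KDEL receptors, bring escaped ER proteins back. Fibroblast-like cells of connective tissue are known for a large output of collagen, a cargo that needs particular COPII coat and exit-site proteins.

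Promoter stretches of 4 genes that were higher in PICs by at least 2-fold, and of 2 further members, are shown because all 6 hold letters of elements known from the ER stress response. RefSeq promoter windows (GRCm38.p6, from 250 bases before to 50 bases after a start site) were matched by symbol for 58 of the 70 genes, with 64 windows. Each line gives 100 bases from before the start, 5′ to 3′ on the strand of the gene. Capitals mark the fixed letters of the motif found, TGACGTG (or its reverse complement CACGTCA) in all but Pdia6, where they mark CCAAT and CCACG.
Kdelr3, chr15:79516308-79516407, plus strand: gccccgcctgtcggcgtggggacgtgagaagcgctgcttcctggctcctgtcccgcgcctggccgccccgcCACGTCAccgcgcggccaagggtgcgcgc
Sec24d, chr3:123267396-123267495, plus strand: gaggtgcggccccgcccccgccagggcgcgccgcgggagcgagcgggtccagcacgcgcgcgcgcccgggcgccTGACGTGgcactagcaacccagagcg
Sec16b, chr1:157506696-157506795, plus strand: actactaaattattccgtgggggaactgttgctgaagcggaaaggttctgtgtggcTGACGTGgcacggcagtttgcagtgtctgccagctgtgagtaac
Mia3, chr1:183369599-183369698, minus strand: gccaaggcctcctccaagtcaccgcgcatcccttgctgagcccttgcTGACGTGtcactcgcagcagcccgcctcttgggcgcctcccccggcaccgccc
Copb1, chr7:114254681-114254780, minus strand: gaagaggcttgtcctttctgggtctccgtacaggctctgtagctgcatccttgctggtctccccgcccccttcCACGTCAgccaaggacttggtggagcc
Pdia6, chr12:17266450-17266549, plus strand: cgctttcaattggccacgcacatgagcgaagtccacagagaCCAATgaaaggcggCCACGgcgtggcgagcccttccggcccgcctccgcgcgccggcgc

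TGACGTG, the core letters of the unfolded protein response element, was searched on both strands of all 32851 windows and found in 2.01% of them. Among windows of all genes tested it was in 2.86%, and among those of all genes called higher in PICs in 2.31%. It was in 7 of the 64 windows of the members (10.9%). Of the 14 members called higher in PICs that had a window, 5 held it: Kdelr3, Mia3, Sec16b, Sec23a and Sec24d. Counted by gene in this way, TGACGTG was in 3.4% of all genes tested and 2.74% of all genes called higher in PICs. Of the 44 other members with a window, Copb1 and Copb2 held it. In Sec23a and Copb2 the match is not wholly in the bases before the start and is not printed. The ER stress response element (ERSE), CCAAT and CCACG with a spacer between them, was found in 0.119% of all windows and, among the members, in Pdia6 alone. Its other form, ERSE-II, was in 0.0365% of all windows and in no window of a member. These matches describe letters in a window; binding was not measured.

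Before the results, the arrays were checked for the sorted cells and for others. Medians were 10 on every array, but normalization by quantiles makes them equal, so they are no check of the arrays. The correlation over genes was 0.956 to 0.986 between 2 arrays of one population. Of 6 satellite cell markers and 6 interstitial markers all were present on the array. The satellite cell markers summed to an intensity of 984 to 2619 in PICs and 23507 to 25687 in satellite cells. The interstitial markers summed to 62106 to 63770 in PICs and 7498 to 14751 in satellite cells, with satellite replicate 3 the highest. None of the 6 satellite cell markers was at the low value level on all 3 PIC arrays, and of the interstitial markers Clec3b alone was so on all 3 satellite arrays. Blood markers were highest on both arrays numbered 1 (1850 and 2455, against 58 to 196 on the others), with the lymphocyte markers Cd3e and Cd79a at the low value level on all arrays. Endothelial markers summed to 1384 to 4959 in PICs and 2364 to 3490 in satellite cells. Muscle fibre markers came to 5151 to 6549 and 3436 to 7236, and 3 Schwann and glial markers on the array to 1694 to 12366 and 3608 to 10247. These sums hide single markers. Tnnc2 (log2 10.57 to 11.06 against 7.29 to 10.37), Tnnt3 and Myh4 were higher on all PIC arrays. Myh8 was lower there (3.17 to 4.75 against 8.11 to 8.29), and Acta1 and Ckm overlapped. S100b was higher on all PIC arrays (7.14 to 7.21 against 4.70 to 6.15), while Sox10 and Mbp overlapped. The plasma and gland cell markers Jchain, Cd79b, Mzb1 and Ins2 were at the low value level on all 6 arrays. The part of these other cells in the results was not tested. In sorted bulk RNA, fewer cells that express a gene and less RNA of it per cell cannot be told apart.

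Most secretory pathway genes had higher transcript levels in PICs than in satellite cells, and most of the differences were moderate. Called genes had a limma adjusted p under 0.05 together with a difference of at least 1 on the log2 scale (2-fold); all differences are log2 levels of PICs minus satellite cells. By that rule 15 of the 62 tested members were higher in PICs, against 16.7% of all genes tested, and 2 were higher in satellite cells, against 13.0%. In either direction the members called were 27.4%, close to the 29.8% of all 10855 genes tested. At any size, an adjusted p under 0.05 was reached by 35 members higher in PICs (56.5%), against a background of 27.6%, and by 6 higher in satellite cells, against 28.6%. In either direction these were 41 of 62, against 56.3% of all genes, and the remaining 21 did not pass. The median difference over the tested members was 0.53 (middle range 0.07 to 0.97 by quartiles), beside -0.04 over all genes tested. With all 70 members and no filter on low values the median was 0.38. At each of the 3 replicate numbers the PIC array was above the satellite array for 43 of the 62 genes, and below it for 9. The same count was not made over all genes tested, so it has no background here. PIC and satellite arrays did not overlap for 46 of the 62 members (background 64.6%), 39 of them with PICs above (background 31.3%) and 7 with satellite cells above (background 33.2%). Without both arrays numbered 2, 17 members passed at any size with PICs higher and 2 with satellite cells higher; the called members were then 13 and 2. Without satellite replicate 3, which had the highest interstitial markers, 16 members were called higher in PICs and 2 in satellite cells.

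**Figure D1:**
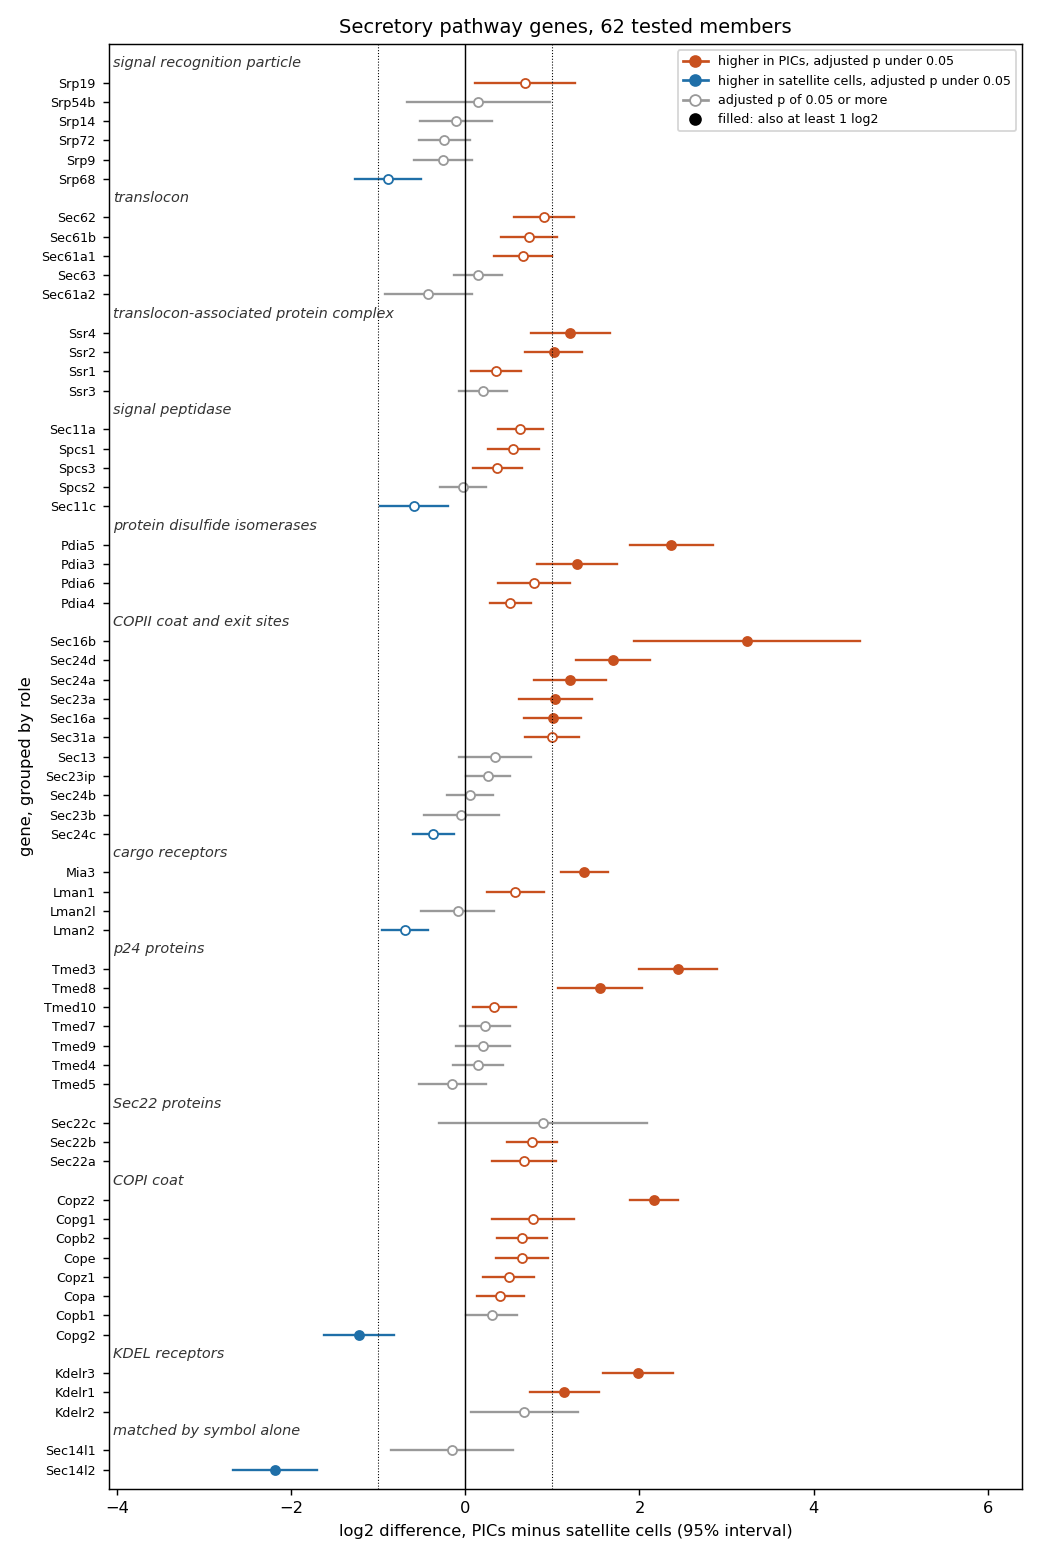
Log2 difference of PICs minus satellite cells with its 95% interval for the 62 tested secretory pathway genes, grouped by role (3 arrays per population; dotted lines at 1 and -1). Points to the right are higher in PICs: 15 filled points lie beyond 1 on that side, and Copg2 and Sec14l2 beyond -1 on the other.

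**Figure D2:**
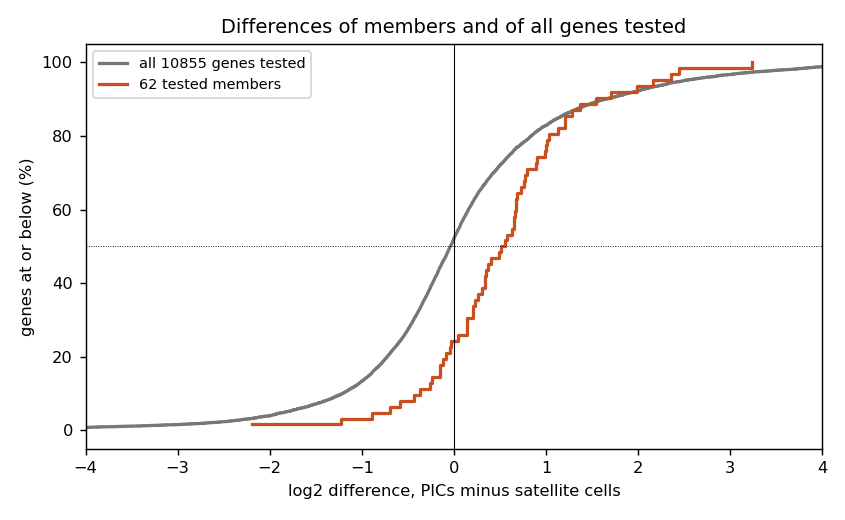
Cumulative share of genes (percent) by their log2 difference, for the 62 tested members and for all 10855 genes tested. The curve of the members crosses 50% at 0.53 and that of all genes at -0.04, and above a difference of 2 the curves run close together.

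The signal recognition particle, which finds the signal sequence of a new protein, had no called gene and a median difference of -0.18 over 6 tested genes. Srp68, one of its large protein subunits, lay at 9.75, 9.81 and 10.20 on the PIC arrays and at 10.68, 10.83 and 10.93 on the satellite arrays. All satellite arrays were above all PIC arrays, a difference of -0.89 (SE 0.16; limma, adjusted p = 0.00339). Srp19, which helps the particle's RNA fold, went the other way by 0.68 (adjusted p = 0.0471), with satellite replicate 3 the lowest at 8.68 and the others at 9.57 and 9.37. Srp72, the partner of Srp68, differed by -0.24 (95% interval -0.54 to 0.06). Srp9 and Srp14, which form the part that slows translation, differed by -0.26 (-0.59 to 0.08) and -0.11 (-0.53 to 0.30). Srp54b, a copy of the signal-binding subunit whose probe set may share transcripts with close copies, lay between 4.25 and 5.46 on all arrays, just above the low value level.

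At the translocon, the channel into the ER, 3 of 5 genes passed the test with PICs higher, none by 2-fold. Over all genes tested, 27.6% passed with PICs higher and 16.7% were called so. Sec61a1, the pore subunit, lay at 13.62, 13.73 and 13.89 in PICs and at 13.00, 12.99 and 13.28 in satellite cells. The arrays did not overlap, and the difference was 0.66 (SE 0.14; limma, adjusted p = 0.00651). Sec61b, a small subunit, differed by 0.73 (adjusted p = 0.00407) and Sec62, which serves proteins inserted after translation, by 0.91 (adjusted p = 0.00200). Sec61a2, the other pore subunit gene, was lower in PICs at each replicate number but overlapped between populations (-0.43, 95% interval -0.93 to 0.07; adjusted p = 0.123, or 0.0358 with the replicate number as a block). A second Sec61a2 probe set gave -0.51 without overlap of arrays. Sec63, the partner of Sec62, differed by 0.14 (-0.13 to 0.42). Other Sec63 probe sets above the low value level gave -0.04, 0.10, 0.57 and 0.65, the last without overlap of arrays.

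All 4 subunits of the translocon-associated protein complex, which sits beside the channel, had a positive difference on the probe set used. Ssr2 and Ssr4 were called higher in PICs, against 16.7% of all genes tested. Ssr2 lay at 11.37, 11.62 and 11.64 in PICs and at 10.39, 10.50 and 10.70 in satellite cells, 2.02-fold apart (limma, adjusted p = 0.00104). Its difference of 1.01 stood at the size threshold and ranged from 0.945 to 1.10 when arrays were left out, and the call was lost in 5 of 19 alternatives. Ssr4 differed by 1.20 (adjusted p = 0.00199), but its other probe set above the low value level gave 0.02, so the call rested on 1 of 2 probe sets. Ssr1 differed by 0.35 (adjusted p = 0.0457). Its other probe sets above the low value level gave -0.45, 0.04 and 0.91, the first with all satellite arrays above all PIC arrays. Ssr3, whose probe set read the highest mean level of all members, differed by 0.20 (-0.07 to 0.48). A second Ssr3 probe set gave 0.57 without overlap of arrays.

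Signal peptidase, which removes the signal sequence, exists with either of 2 catalytic subunits, and these went in opposite directions. Sec11a lay at 12.33, 12.45 and 12.49 in PICs and at 11.87, 11.78 and 11.72 in satellite cells, a difference of 0.63 (SE 0.11; limma, adjusted p = 0.00286). Sec11c lay at 10.05, 9.75 and 10.03 in PICs and at 10.78, 10.52 and 10.31 in satellite cells, a difference of -0.59 (SE 0.16; limma, adjusted p = 0.0204). Both genes had arrays that did not overlap. Of the accessory subunits, Spcs1 (0.55, adjusted p = 0.00913) and Spcs3 (0.37, adjusted p = 0.0349) were higher in PICs, and Spcs2 differed by -0.03 (-0.30 to 0.24).

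All 4 protein disulfide isomerases, which form and rearrange disulfide bonds in the ER, were higher in PICs at an adjusted p under 0.05. Over all genes tested, 27.6% were so. Pdia5 had log2 levels of 10.19, 10.51 and 10.91 in PICs and of 8.08, 8.15 and 8.30 in satellite cells. The lowest PIC array was thus well above the highest satellite array, and the populations were 5.14-fold apart (limma, adjusted p = 0.000182), which placed Pdia5 at rank 604 of 10855 towards PICs. Pdia3, a partner of calnexin and calreticulin on glycoproteins, lay at 13.50, 13.68 and 13.05 against 12.10, 12.31 and 11.98 (difference 1.28, SE 0.19; adjusted p = 0.00162). Pdia6 and Pdia4 differed by 0.79 (adjusted p = 0.00800) and 0.52 (adjusted p = 0.00464), under the 2-fold size.

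Among the COPII coat and exit-site genes, 5 of 11 were called higher in PICs, against 16.7% of all genes tested, and 0 in satellite cells, against 13.0%. Paralogs of the same coat position differed from each other. The inner coat pairs Sec23 with Sec24, and Sec24 binds the cargo. Sec24d had levels of 11.54, 11.74 and 11.87 in PICs and 9.84, 9.87 and 10.34 in satellite cells, 3.25-fold apart (limma, adjusted p = 0.000366). Sec24a lay at 10.35, 10.20 and 10.62 against 9.26, 8.94 and 9.37, 2.30-fold apart (adjusted p = 0.00127). For both genes every PIC array was above every satellite array. Sec24b differed by 0.05 (95% interval -0.21 to 0.31). Sec24c was higher in satellite cells, at 11.06, 11.10 and 11.14 there and 10.76, 10.70 and 10.73 in PICs (-0.37, adjusted p = 0.0179).

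Sec23a, known for skeletal defects when it is mutated in people, lay at 11.04, 11.12 and 11.51 in PICs and at 10.05, 10.11 and 10.41 in satellite cells. The difference was 1.03 (SE 0.17; limma, adjusted p = 0.00266) and fell as low as 0.89 without PICs replicate 3, and the call was lost in 5 of 19 alternatives. Sec23b differed by -0.05 (-0.48 to 0.39), with overlapping arrays. Sec31a, of the outer coat, differed by 0.99 (adjusted p = 0.000933), just under 2-fold. Sec13, its partner, differed by 0.34 (adjusted p = 0.133), and with replicate number as a block its adjusted p was 0.0338. Sec23ip, a Sec23-binding protein of the exit sites, differed by 0.26 (0.01 to 0.51; adjusted p = 0.0746).

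The exit-site scaffold genes Sec16a and Sec16b were both called. Sec16b had the largest difference of all members, with levels of 7.66, 7.87 and 8.23 in PICs and of 3.91, 4.17 and 5.98 in satellite cells. Satellite replicate 1 was at the low value level and replicate 3 clearly above it, so the fold of 9.42 (limma, adjusted p = 0.00261) is imprecise, with a 95% interval of 1.94 to 4.54 on the log2 scale. Satellite replicate 3 also had the highest interstitial markers; without it the difference of Sec16b was 3.88. Sec16a differed by 1.00 (SE 0.14; adjusted p = 0.00106), at the size threshold; it lost its call in 8 of 19 alternatives, and its other probe set gave 0.87.

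**Figure D3:**
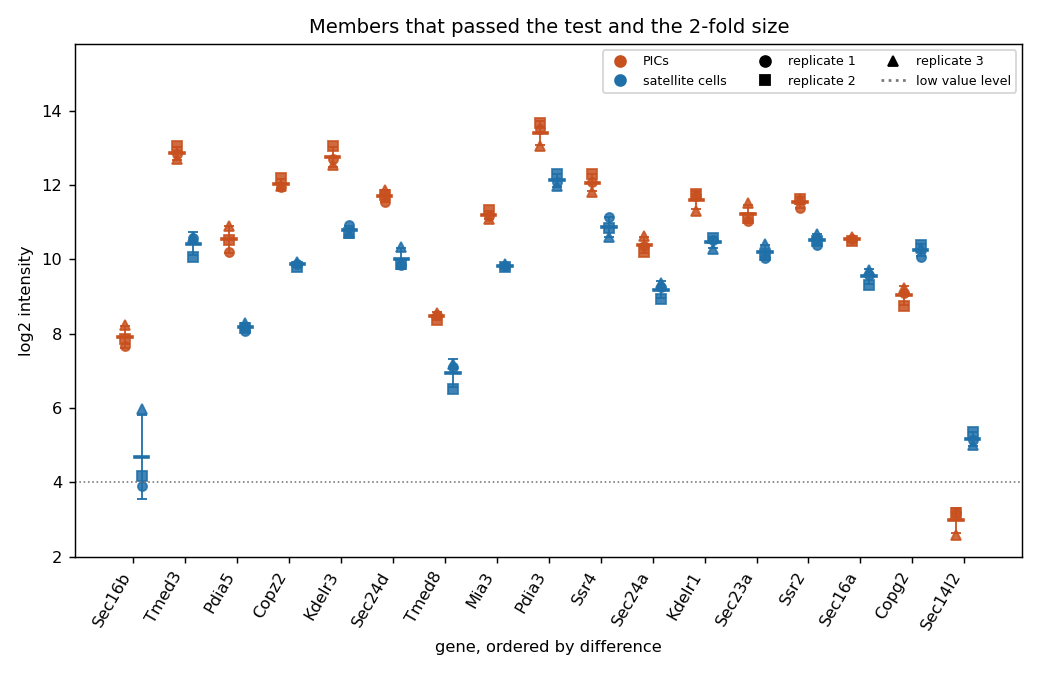
Log2 intensity on each array for the 17 called members, PICs and satellite cells side by side, with marker shape for the replicate number, bars for mean and SD (n = 3) and a dotted line at the low value level of 4. The populations do not overlap for any of the 17 genes, but these were selected by their difference on the same arrays. Of all genes tested, 64.6% did not overlap. The widest spread is that of Sec16b in satellite cells, from 3.91 to 5.98.

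Of the cargo receptors, Mia3 was called. It encodes TANGO1, an exit-site protein known for the export of collagen. Mia3 lay at 11.17, 11.32 and 11.09 in PICs and at 9.82, 9.79 and 9.87 in satellite cells, 2.58-fold apart with little spread in either population (limma, adjusted p = 0.000162). Its 2 other probe sets above the low value level gave 1.19 and 2.43, the second with arrays that spread from 8.08 to 9.89 in PICs and 4.81 to 8.16 in satellite cells. The mannose-binding receptors were divided. Lman1 (ERGIC-53), which carries glycoproteins out of the ER, differed by 0.57 (adjusted p = 0.0113). Lman2 (VIP36) was lower in PICs, at 9.37, 9.23 and 9.34 against 9.94, 9.96 and 10.12 (difference -0.69, adjusted p = 0.00215). A second Lman2 probe set gave -0.19 with overlapping arrays. Lman2l differed by -0.09 (-0.51 to 0.33). Mia2 and Lman1l did not pass the filter, with no array above 2.32 and 2.00.

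The p24 proteins are small membrane proteins that cycle between ER and Golgi and help to load cargo. The genes here were taken by their Tmed symbol, and whether each encodes a p24 protein was not checked. Tmed3 and Tmed8 were called higher in PICs among 7 tested Tmed genes (28.6%), against 16.7% of all genes tested. Tmed3 had levels of 12.83, 13.05 and 12.70 in PICs and of 10.59, 10.06 and 10.60 in satellite cells. These stood 5.43-fold apart (limma, adjusted p = 0.000141), at rank 568 towards PICs among all genes tested. A second Tmed3 probe set, at a lower level, gave a difference of 1.21. Tmed8 lay at 8.50, 8.37 and 8.57 in PICs and 7.11, 6.51 and 7.19 in satellite cells (1.54, adjusted p = 0.000884). Tmed10 differed by 0.33 (adjusted p = 0.0317). Tmed4, Tmed5, Tmed7 and Tmed9 differed by -0.15 to 0.22 on the probe sets used and did not pass. Other Tmed7 probe sets gave -0.07, 0.03 and 0.96, the last with all PIC arrays above all satellite arrays. Tmed2, Tmed6 and Tmed11 did not pass the filter; the only Tmed2 probe set read 3.00 on its highest array.

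Sec22 proteins act in membrane fusion or are related to proteins that do. Sec22b, the SNARE of the group, differed by 0.76 (SE 0.12; limma, adjusted p = 0.00199), and a second probe set gave 1.54 without overlap of arrays. Sec22a differed by 0.67 (adjusted p = 0.0102). Sec22c lay at 7.23, 7.63 and 5.88 in PICs and at 6.51, 6.13 and 5.43 in satellite cells. It was higher in PICs at each replicate number but overlapped between populations, since both arrays numbered 3 were low (difference 0.89). Its adjusted p was 0.171, and 0.0235 in the blocked fit.

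The COPI coat, which returns vesicles from the Golgi to the ER, had 6 of 8 genes with PICs higher at an adjusted p under 0.05. That is 75%, against 27.6% of all genes tested. Of these 6, Copz2 alone was called, which is 12.5% of the coat genes, against 16.7% of all genes tested. Copz2, one of a pair of zeta subunits, lay at 11.94, 12.19 and 11.99 in PICs and at 9.89, 9.80 and 9.93 in satellite cells. The 4.49-fold difference had the smallest adjusted p of all members (limma, 5.99e-05). Copz1, the other zeta subunit, differed by 0.49 (adjusted p = 0.0143). Copg2, one of a pair of gamma subunits, went against the rest of the coat, at 9.10, 8.75 and 9.24 in PICs and 10.08, 10.39 and 10.30 in satellite cells (difference -1.22, SE 0.17; adjusted p = 0.00107). Copg1, the other gamma subunit, was higher in PICs by 0.78 (adjusted p = 0.0148). Copb2, Cope and Copa differed by 0.65 (adjusted p = 0.00406), 0.65 (adjusted p = 0.00490) and 0.40 (adjusted p = 0.0206). Copb1 differed by 0.30 (0.00 to 0.60; adjusted p = 0.0781).

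KDEL receptors bind ER proteins that have leaked to the Golgi and send them back. Kdelr3 had levels of 12.71, 13.06 and 12.53 in PICs and of 10.93, 10.70 and 10.71 in satellite cells, 3.96-fold apart (limma, adjusted p = 0.000181). Kdelr1 lay at 11.72, 11.77 and 11.31 against 10.53, 10.57 and 10.29, 2.20-fold apart (adjusted p = 0.00141). In both genes the PIC arrays were all above the satellite arrays. Kdelr2 lay at 13.24, 13.46 and 12.50 in PICs and 12.45, 12.49 and 12.23 in satellite cells, with PICs replicate 3 only slightly above the satellite arrays. Its difference of 0.67 did not pass (adjusted p = 0.0616), but did in the blocked fit (0.0212). Over all alternatives the difference of Kdelr2 lay between 0.478 and 1.41, lowest without PICs replicate 2. A second Kdelr2 probe set gave 1.41.

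Paralogs that take the same place in a coat or complex were then set against each other within each array, as the log2 level of one minus the other; only the change of this gap between populations is read, since levels of different probe sets are not comparable. The gap of Copg1 over Copg2 was larger in PICs by 2.00 and was 1.84, 2.46 and 1.70 larger at replicate numbers 1, 2 and 3. Sec24d moved by 2.07 against Sec24c and by 1.65 against Sec24b. Sec23a moved by 1.08 against Sec23b, Copz2 by 1.67 against Copz1, and Kdelr3 by 0.85 against Kdelr1. The gap of Sec11a over Sec11c was larger in PICs by 1.22, and that of Sec61a1 over Sec61a2 by 1.09. In these 8 pairs the 3 PIC arrays did not overlap the 3 satellite arrays, which gave an exact two-sided permutation p of 0.10 for each, the smallest that 3 against 3 arrays allow. None of these gaps can therefore pass 0.05 by that test. The further pairs compared, such as Lman1 over Lman2 and Tmed3 over Tmed7, did not overlap either. Of all single genes tested, 64.6% did not overlap, and the share over other gene pairs was not counted. The lack of overlap is therefore not read as particular to these paralogs. The pairs were chosen with earlier results known.

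**Figure D4:**
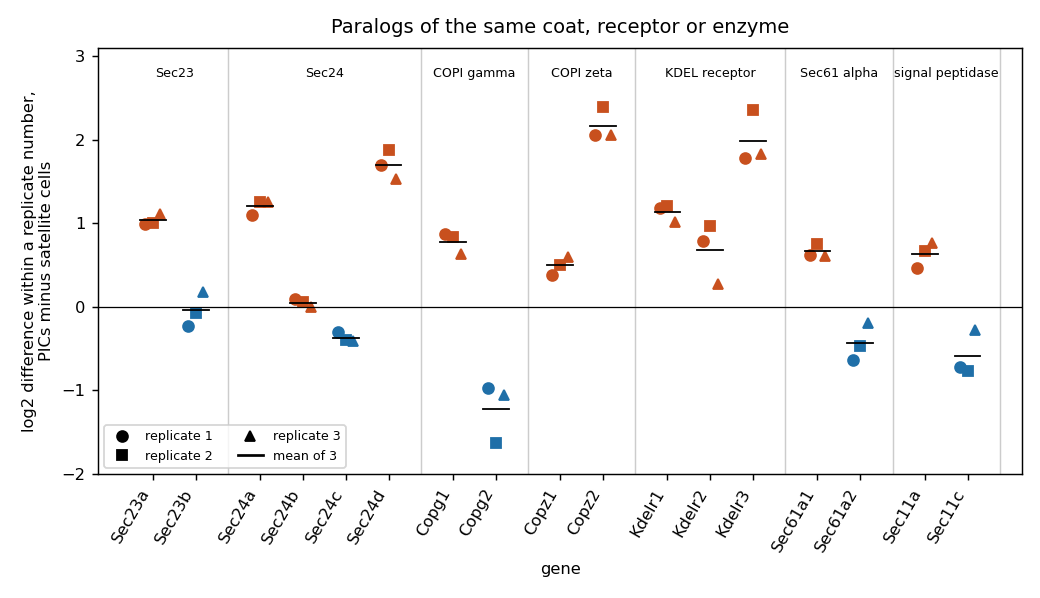
Log2 difference of PICs minus satellite cells within each replicate number (markers) and its mean (bars) for paralogs of 7 families. Sec24d and Sec24a are high while Sec24b and Sec24c lie near or below 0; Copg2, Sec61a2 and Sec11c are below 0 at all 3 numbers, opposite to their paralogs.

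Of the 5 genes that only the symbol pattern brought in, 2 were tested. Sec14l2, a lipid-binding protein, was at or under the low value level on all PIC arrays (3.17, 3.17 and 2.58) and at 5.13, 5.36 and 5.0 on the satellite arrays, at least 2.24-fold higher in satellite cells (limma, adjusted p = 0.000232). It passed the filter only through satellite cells and read the lowest mean level of the tested members. Sec14l1 differed by -0.15 (-0.85 to 0.54), while a second, lower probe set gave -2.16. Sec1, Sec14l3 and Sec14l4 did not pass the filter. Without these 5 genes, 15 of 60 tested members were called higher in PICs and 1, Copg2, in satellite cells.

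Several members were read by more than 1 probe set, and these did not always agree in size. Of the 62 genes, 31 had several probe sets above the low value level and 31 had 1. In 6 genes (Sec63, Spcs2, Srp72, Ssr1, Tmed5 and Tmed7) probe sets differed in sign; none of these was called. Taking the mean of a gene's probe sets gave 15 members called higher in PICs and 3 in satellite cells. The arrays numbered 3 read low in both populations on some probe sets only: a Lman1 probe set lay at 10.72, 10.58 and 9.32 in PICs and 10.28, 9.61 and 8.16 in satellite cells, while the one used for Lman1 lay at 11.76, 11.96 and 11.99 and at 11.18, 11.30 and 11.51. A Srp72 probe set showed the same pattern, at 10.76, 10.81 and 9.40 and at 10.57, 10.40 and 9.53.

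**Figure D5:**
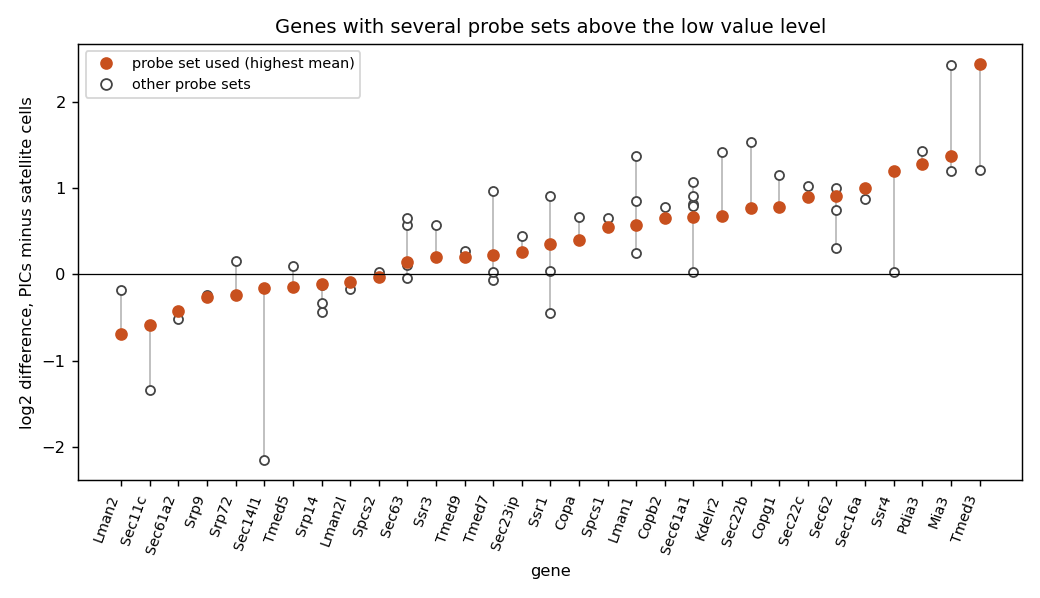
Log2 difference of PICs minus satellite cells for each probe set above the low value level, for the 31 genes with several; filled points are the probe sets used. The largest spans are those of Sec14l1, from -2.16 to -0.15, Ssr1, from -0.45 to 0.91, and Mia3 and Tmed3, whose probe sets are all above 1.

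Other genes of the same route were taken from lists chosen by function. Over all genes tested, 27.6% passed with PICs higher and 28.6% with satellite cells higher. By the 2-fold rule, 16.7% of all genes tested were called higher in PICs and 13.0% in satellite cells. Of 11 tested oligosaccharyltransferase genes, which attach sugar chains to proteins entering the ER, 10 had an adjusted p under 0.05 with PICs higher and 0 with satellite cells higher, 4 of them by 2-fold (median difference 0.81). These 4, 36.4% of the list, were Tusc3 (1.40), Krtcap2 (1.18), Ostc (1.13) and Dad1 (1.07). ER lumen chaperones and folding enzymes passed with PICs higher in 13 of 20 and with satellite cells higher in 0 (median 0.65). Of the 6 called (30% of the list), the 4 with the largest differences were Txndc5 (1.37), Erp29 (1.33), Ero1a (1.31) and Erp44 (1.28). Hspa5 (BiP), the general chaperone of the ER, differed by 0.02 (95% interval -0.43 to 0.47) and Canx by 0.02 (-0.33 to 0.38).

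Of 8 tested genes for targeting proteins to the ER and inserting them there, 4 passed with PICs higher. Nomo1 (-0.76) and Get4 (-0.36) passed with satellite cells higher (list median 0.40). Tram2 (1.78) and Tram1 (1.23) were called, 25% of the list against 16.7% of all genes tested. Of 23 COPII accessory genes, 7 passed with PICs higher and 1, Klhl12, with satellite cells higher (median 0.16). The 7 are 30.4% of the list, near the 27.6% of all genes tested. The called ones were Surf4 (1.26), a cargo receptor, and Mcfd2 (1.03), the partner of Lman1. They are 8.70% of the list, below the 16.7% of all genes tested that were called higher in PICs. Sar1a, a GTPase that starts the COPII coat, differed by 0.79, and Sar1b by -0.14 (-0.61 to 0.34). COPI accessory genes passed in 5 of 9 with PICs higher and in 1 with satellite cells higher. Arfgap3 (1.53) and Arfgap1 (1.17), which act on the GTPase of the COPI coat, were called (22.2% of the list). SNAREs and tethers between ER and Golgi passed in 11 of 15 with PICs higher. Bet1l (1.22) alone reached 2-fold on that side, 6.67% of the list against 16.7% of all genes tested. Bcap29 was called higher in satellite cells (-1.01), as were 13.0% of all genes tested. ER-associated degradation genes passed in 9 of 12 with PICs higher and in 1 with satellite cells higher. Erlec1 (2.06), Selenos (1.76) and Os9 (1.34) were called higher in PICs, 25% of the list.

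Regulators of the route were divided. The unfolded protein response list passed in 3 of 10 genes with PICs higher and in 0 with satellite cells higher (median 0.08), near the 27.6% of all genes tested that passed with PICs higher. In this list 20% were called higher in PICs, near the 16.7% of all genes tested. The sensor genes Eif2ak3 (PERK; 1.82, limma, adjusted p = 0.000369) and Ern1 (IRE1; 1.48, adjusted p = 0.000214) were called, and Xbp1 differed by 0.76 (adjusted p = 0.00246). Atf6 differed by -0.28 (-0.59 to 0.02), Atf4 by -0.05 (-0.64 to 0.54) and Ddit3 (CHOP) by 0.33 (-0.93 to 1.59). In the Creb3 family, transcription factors held in the ER membrane until they are cleaved, all 3 tested genes were called. Creb3l1, known for its role in collagen-producing cells, lay at 10.37, 10.47 and 10.45 in PICs and at 6.25, 5.83 and 7.50 in satellite cells (3.90, adjusted p = 0.000376). Satellite replicate 3 was the highest of the satellite arrays, as it was for the interstitial markers. Creb3l2 differed by 1.88 (adjusted p = 0.000106) and Creb3 by 1.47 (adjusted p = 0.000311). Of 8 collagen genes taken as cargo, all 8 passed with PICs higher and 5 by 2-fold (62.5%, against 16.7% of all genes tested). The largest differences were those of Col6a3 (2.25), Col5a1 (1.97), Col6a2 (1.73) and Col5a2 (1.29). Col1a2 (0.70), Col1a1 (0.67) and Col3a1 (0.45) were under 2-fold, with mean satellite levels of 14.67, 13.91 and 15.41.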

How the data were processed

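Levels were read from 1 deposited table of 45037 probe sets on 6 arrays. Per the submitters' processing notes, the authors made these intensity values with GCRMA, which corrects background by probe sequence, normalizes by quantiles and summarises probe sets; the sources used here do not give its version. The deposited intensities are linear and whole (lowest 2, highest 60842); log2 was taken here. Rounding makes steps coarse near the lowest values. Scan dates were not used here. Probe sets with 1 platform gene symbol (34945) were kept where log2 exceeded 4 (intensity 16) on at least 3 arrays, and each gene was read by its brightest probe set on average over the 6 arrays (10855 genes). limma 3.58.1 in R 4.3.3 (lmFit, eBayes, two-sided) tested PICs against satellite cells with Benjamini-Hochberg adjustment over all genes; it was tested on simulated data. Members and lists were chosen with earlier results of these data known. Named are all members with an adjusted p under 0.05, their paralogs and members below the filter. Per other list, up to 4 called genes of largest difference per direction are named. Other genes named from those lists (Hspa5, Canx, Sar1a, Sar1b, Klhl12, Nomo1, Get4, Xbp1, Atf6, Atf4, Ddit3, Col1a1, Col1a2 and Col3a1) were chosen after their values were seen. Equal replicate numbers pair the arrays by the data, not the labels: deviations from the population means correlated at 0.623, 0.222 and 0.579 for equal numbers and -0.568 to 0.0363 for unequal ones.
Alternatives were other filters, a pseudocount of 16, other probe set rules, the replicate block, array weights, a trend, array centring and left-out arrays.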

Additional observations from a re-analysis of the deposited data

How the results depend on the processing

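The counts of members called higher in PICs stayed within 1.5 times of 15 under every alternative run, from 12 to 17. Leaving out single arrays gave 12 to 16 called higher in PICs and 2 to 3 in satellite cells. At any size it gave 28 to 35 and 4 to 7, with medians of 0.49 to 0.56. Leaving out both arrays of a number (chosen after seeing the data) gave 13 to 16 and 2 called, 17 to 37 and 2 to 6 at any size, and medians of 0.46 to 0.56. The members called higher in satellite cells were 1 with the stricter filter (log2 above 6), 1 without Sec1 and the Sec14-like genes, and 4 with the probe set of lowest mean, the last 2 alternatives chosen after seeing the data. Array weights gave 10 at any size with satellite cells higher. With no filter the median became 0.385. The replicate block changed no call of a member at 2-fold, and gave 38 and 7 members at any size; Kdelr2, Sec13, Sec22c and Sec61a2 passed there in addition. Mia3, Sec16a, Sec23a, Ssr2 and Ssr4 lost their call, and Copg1, Kdelr2, Sec11c, Sec14l1, Sec22b, Sec22c, Sec31a, Sec61a1, Sec62 and Srp68 gained one, under at least 1 alternative. No member reversed its sign where it was called. The design gives 3 arrays per population, which limits the precision of every difference.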
